A study of Mus musculus with 4 samples.

Results

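α-Defensins and Paneth lysozyme of mouse colon are described here as 10 genes, *Defa2*, *Defa3*, *Defa21*, *Defa23*, *Defa25*, *Defa26*, *Defa28*, *Defa29*, *Defa40* and *Lyz1*, out of 22371 genes named on the arrays. They are read by 15 probes of 60 bases, 14 for the 9 α-defensins and 1 for *Lyz1*. A RefSeq accession assigned 13 of the probes, and an older gene name the brightest probe of *Defa40* and the single probe of *Defa28*. The members were selected on signals of these same arrays, mainly the contrasts after azoxymethane, so their values are given as a description, with no test. The arrays came from 4 pools of colon RNA, all from males on the B6.129 background (backcross generation 3), 42 weeks old, each pool on 1 array. The vehicle pools came from *Pla2g3*+/+ and *Pla2g3*-/- mice given saline, and the AOM pools from mice of both genotypes that received the colon carcinogen azoxymethane (AOM) in weekly doses of 10 mg/kg over 6 weeks and were killed 28 weeks after the last injection. The deposited design gives 3 to 5 mice per pool, and the study's text names the whole descending colon. No cell-type-specific driver is given for the deletion.

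Paneth cells sit at the base of small intestinal crypts and secrete granules filled with antimicrobial proteins. In the mouse their α-defensins, also called cryptdins, are made as precursors with an acidic propiece that the matrix metalloproteinase Mmp7 removes, and they are stored together with lysozyme P, the product of *Lyz1*. Healthy colon has few or no Paneth cells, whereas Paneth-like cells are known from inflamed colon and from colon tumors. *Lyz2* encodes the lysozyme of macrophages. C57BL/6 and 129 mice carry different sets of α-defensin genes, and mice of a low backcross generation can carry either.

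The α-defensins are near copies, and the probe sequences show how little separates them. The first set lies in the sequence coding for the mature peptide and is shown because its probes differ in the vehicle pools. The *Defa3* probe lies at chr8:22427899-22427958 of mm9, the *Defa40* probe at chr8:22390077-22390136 and the *Defa27* probe at chr8:22456000-22456059, while that of *Defa1* has no position in mm9. Each is printed 5′ to 3′, with capitals at the bases where it differs from *Defa3* in the aligned stretch and, in *Defa3*, at every base where any of the other probes differs.
*Defa3*: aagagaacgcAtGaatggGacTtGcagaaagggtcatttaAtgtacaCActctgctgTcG
*Defa40*: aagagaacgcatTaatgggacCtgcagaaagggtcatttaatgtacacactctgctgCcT
*Defa27*: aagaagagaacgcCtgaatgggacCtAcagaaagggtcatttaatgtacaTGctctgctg
*Defa1*: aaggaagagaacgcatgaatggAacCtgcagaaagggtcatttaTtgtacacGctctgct
Counted from 1 at the 5′ end of the *Defa3* probe, *Defa40* differs by G13T, T22C, T58C and G60T, which is 4 of 60 bases. *Defa27* differs at 5 of 57 aligned bases and *Defa1* at 4 of 56, and all 3 carry T22C.

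The second set lies in the propiece and is shown because *Defa25*, the member with the smallest change, overlaps it. *Defa3* is at chr8:22427233-22427292, *Defa2* at chr8:22619884-22619943, *Defa36* at chr8:22675997-22676056 and *Defa25* at chr8:22224205-22224264 of mm9, with capitals used as above.
*Defa3*: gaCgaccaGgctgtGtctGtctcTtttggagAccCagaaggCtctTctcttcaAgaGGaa
*Defa2*: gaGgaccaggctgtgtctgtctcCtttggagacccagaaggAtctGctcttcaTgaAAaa
*Defa36*: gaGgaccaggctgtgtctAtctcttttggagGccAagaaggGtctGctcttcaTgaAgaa
*Defa25*: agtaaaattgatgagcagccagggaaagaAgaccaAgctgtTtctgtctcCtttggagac
*Defa2* differs from *Defa3* at 7 of 60 bases, *Defa36* at 8 of 60 and *Defa25* at 4 of the 33 bases that it shares. All 14 member α-defensin probes overlapped, over at least 20 bases, a probe of another α-defensin, with exact runs of 15 to 44 shared bases. The array annotation listed more than 1 RefSeq gene, up to 4, for 11 of the 14 probes. A signal therefore belongs to a group of transcripts, and how it divides among paralogs was not measured.

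RefSeq (GRCm38.p6) gave a promoter for 5 of the 10 genes, *Defa2*, *Defa21*, *Defa23*, *Defa28* and *Lyz1*. Those of the α-defensins are shown because these genes changed in the same direction in the contrasts of the *Pla2g3*+/+ AOM pool. The 120 bases before the start lie at chr8:21378397-21378516 for *Defa2*, chr8:21025425-21025544 for *Defa21*, chr8:21054920-21055039 for *Defa23* and chr8:21582907-21583026 for *Defa28*, all on the plus strand. Capitals mark TATAAA (the TATA box) and CTTTGA (the core bound by TCF/LEF factors, the nuclear partners of β-catenin in Wnt signaling), the latter found here on the opposite strand as TCAAAG.
*Defa2*: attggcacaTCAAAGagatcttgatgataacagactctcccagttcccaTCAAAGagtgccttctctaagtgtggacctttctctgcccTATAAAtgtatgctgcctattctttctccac
*Defa21*: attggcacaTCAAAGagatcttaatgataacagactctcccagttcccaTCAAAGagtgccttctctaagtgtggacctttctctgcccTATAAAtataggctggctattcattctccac
*Defa23*: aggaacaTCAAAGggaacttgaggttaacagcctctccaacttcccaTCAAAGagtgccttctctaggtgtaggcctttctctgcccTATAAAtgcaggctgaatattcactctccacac
*Defa28*: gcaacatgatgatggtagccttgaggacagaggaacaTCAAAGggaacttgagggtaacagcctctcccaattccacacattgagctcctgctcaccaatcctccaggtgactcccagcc
*Defa2* and *Defa21* were identical at 115 of these 120 bases, and each held CTTTGA at 111 and 71 bases before the start and TATAAA at 31. *Defa28* differed, with a single CTTTGA at 83 bases before the start and no TATAAA. Searched on both strands of the 250 bases before the start, CTTTGA was in 13 of 16 numbered α-defensin genes of the table and in 13.8% of all 32851 promoters, and TATAAA in 15 of 16 and in 12.4%. The *Lyz1* promoter held neither. These matches describe the letters of the reference and show no binding.

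A few facts on the arrays bear on every value. Between 64.8% and 69.4% of spots were well above background by the call of Feature Extraction, and none was saturated. Signals are processed intensities, and ratios were taken after dividing by the 75th percentile of the array, an intensity of 646 and 649.8 for the vehicle pools and 1309 and 1169 for the AOM pools (*Pla2g3*+/+ first). Where 1 side of a ratio was not well above background, it was set to the lowest signal that was (10.7 to 17.1, by array) or to its own value if higher, and the ratio is written "at least". The error given with a log2 ratio is the signal error modelled by Feature Extraction, which covers the spot and not the mice, since each group has 1 array. The targeted gene went against the labels. The brightest of its 3 probes gave 343 and 426 in the *Pla2g3*+/+ and *Pla2g3*-/- vehicle pools and 304 and 1632 in the AOM pools, and all 3 were brighter on the AOM array labeled *Pla2g3*-/-, by 2.76- to 6.66-fold. Whether these probes lie in the deleted segment was not checked, and pools are named by their labels throughout. All 9 genes of the colonocyte list on the arrays, among them *Car1*, *Aqp8* and *Cdx2*, were well above background on all 4 arrays. In *Pla2g3*+/+, however, *Car1* was 9.32-fold, *Aqp8* 261-fold and *Cdx2* 12.1-fold lower after AOM. Their detection alone therefore does not establish the tissue content of a pool.

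After AOM, the *Pla2g3*+/+ pool stood apart from the other 3 for every α-defensin. *Defa2*, a cryptdin with a pair of probes, had signals of 2.84 and 4.66 in the *Pla2g3*+/+ and *Pla2g3*-/- vehicle pools, neither well above background, 28258 in the *Pla2g3*+/+ AOM pool and 27.2 in the AOM pool labeled *Pla2g3*-/-. Its second probe gave 5.79, 4.17, 15391 and 10.1, and only the third of these was well above background. Both probes were thus bright on 1 array and at or near the detection limit on the other 3.

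*Defa3* has 3 probes. The one in the mature peptide printed above gave 13.3, 71.1, 25484 and 36.7 in the same order of pools, all well above background. The brightest probe, from 22427934 to 22427993, gave 9.11 (not well above background), 85.3, 33760 and 52.6. The propiece probe gave 2.58 and 8.08, neither well above background, then 32520 and 44.8. The probes were alike on the AOM arrays and differed in the vehicle pools, where the *Pla2g3*-/- pool was raised on the first pair only.

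*Defa23* was read by a probe from 22195607 to 22195666 at 20.2, 27.2, 50586 and 114, all well above background. A probe that spans a splice junction (22194930 to 22195548) was well above background in the *Pla2g3*+/+ AOM pool only, with 2.74, 3.75, 14776 and 12.3. *Defa40* had 20.01, 20.3, 51197 and 86.8 on its brightest probe (22390171 to 22390230). On these probes the vehicle pools were near each other, and the *Pla2g3*-/- AOM pool was above both. The mature-peptide probe of *Defa40* gave 6.45, 3.07, 20007 and 24.2, with only the AOM pools well above background.

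The single probe of *Defa28* (22694374 to 22694433) gave 10.8 and 13.6, not well above background, then 44206 and 51.6. For *Defa21* (22166019 to 22166078) the signals were 2.77, 3.72, 3212 and 4.39. For *Defa26* (22728711 to 22728770) they were 2.66, 3.57, 4032 and 4.21. For *Defa29* (22465567 to 22465609), a gene of the cryptdin-related sequences whose peptides differ in their cysteine pattern, they were 3.29, 3.54, 1278 and 4.13. In these last 3 genes, the *Pla2g3*+/+ AOM pool was the only one above background.

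*Defa25* (22224205 to 22224264) departed from this. It had 3.77 and 4.59 in the vehicle pools, not well above background, 129 in the *Pla2g3*+/+ AOM pool and 35.5 in the *Pla2g3*-/- AOM pool, so the AOM pools were the bright ones but lay closer together than for any other α-defensin of the list.

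*Lyz1*, on chromosome 10 (116724862 to 116724921), was well above background everywhere, with 5675, 8008, 38342 and 6452. The *Pla2g3*+/+ AOM pool was again highest, but here the other pools were bright as well.

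**Figure D1:**
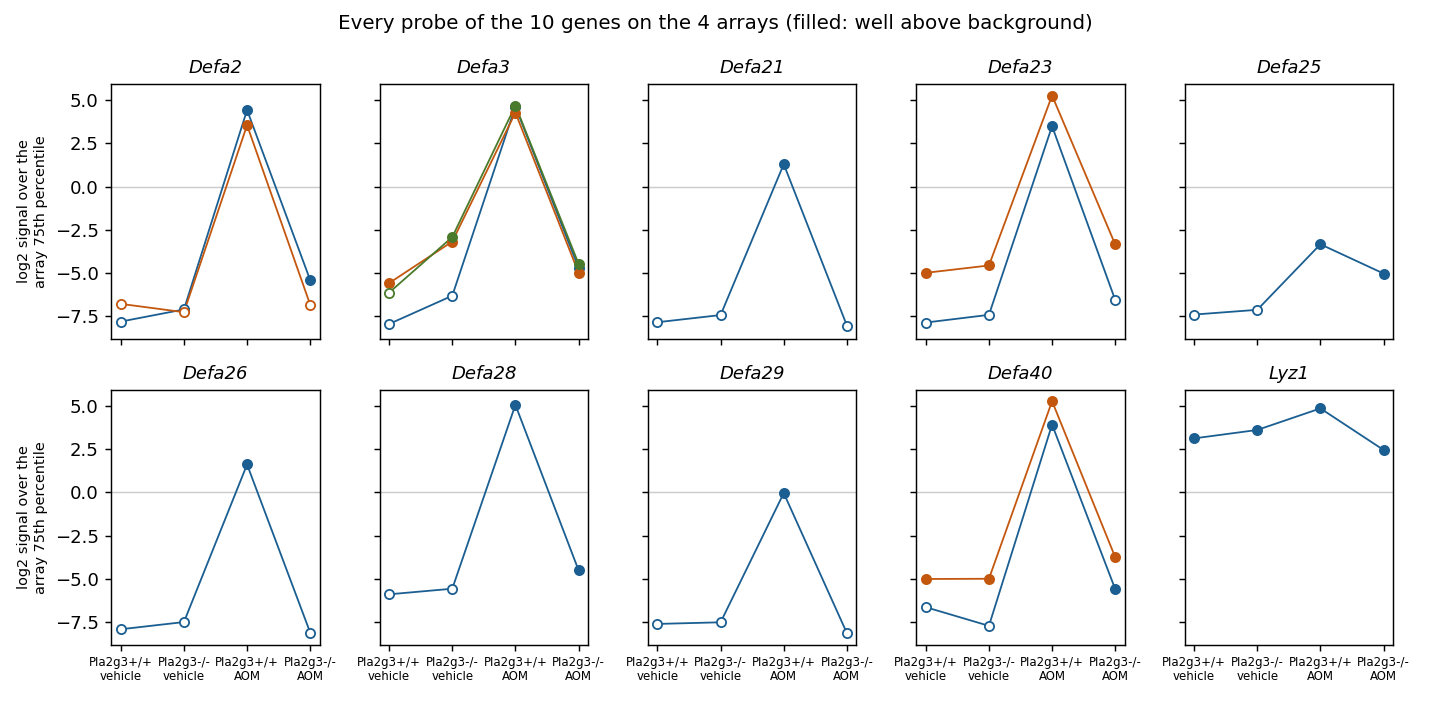
Log2 processed signal over the 75th percentile of the array for each of the 15 probes (1 colored line per probe, 1 panel per gene) on the 4 arrays, with filled circles well above background and open circles not. All α-defensin panels peak in the *Pla2g3*+/+ AOM pool, *Defa25* least, and *Lyz1* is high on all 4 arrays.

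Between the genotypes after AOM, 10 of 10 genes were lower in *Pla2g3*-/- by over 2-fold, and 0 of 10 were higher by as much. Over all 17195 genes with a value, 12.9% were over 2-fold lower and 15.1% over 2-fold higher, and since members were chosen with this contrast in view the share is given beside the count only. As a log2 ratio, the 10 genes had a median of −8.17 and all genes 0.03. *Defa2* had the largest measured ratio on its brighter probe, 926-fold lower (log2 −9.86, modelled error 0.27). *Defa28* was 765-fold lower (−9.58 ± 0.26) and *Defa40* 527-fold (−9.04 ± 0.21). *Defa23* was 396-fold lower on its brighter probe (−8.63 ± 0.21) and at least 771-fold on the other. Without a signal above background in the *Pla2g3*-/- pool, *Defa26* was at least 211-fold lower, *Defa21* at least 168-fold and *Defa29* at least 66.7-fold. *Defa25* was 3.24-fold lower (−1.70 ± 0.26), a value that moved to −0.64 after normexp background correction and quantile normalization, and *Lyz1* 5.31-fold (−2.41 ± 0.20). *Defa25* and *Lyz1* thus had the smallest differences. The bounds depend on the background treatment, and after normexp and quantile normalization *Defa29* was 9.27-fold lower, *Defa21* 21.4-fold and *Defa26* 28.2-fold. In bulk tissue, fewer cells of a type and less RNA per cell cannot be told apart.

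AOM against vehicle in *Pla2g3*+/+ gave the mirror image, and the pair of comparisons share the *Pla2g3*+/+ AOM array. Here 10 of 10 genes were over 2-fold higher and 0 lower, where 15.1% of 17277 genes were higher and 22.4% lower, with medians of 8.90 for the 10 genes and −0.17 for all genes. For 7 genes the vehicle pool was not well above background and the value is a bound. *Defa28* was at least 2017-fold higher, *Defa3* at least 1554-fold and *Defa2* at least 1301-fold, followed by *Defa26* (186-fold), *Defa21* (148-fold), *Defa29* (58.8-fold) and *Defa25* (5.93-fold), all at least. With both pools measured, *Defa40* was 1262-fold higher (log2 10.30, modelled error 0.27), *Defa23* 1238-fold (10.27 ± 0.27) and *Lyz1* 3.33-fold (1.74 ± 0.20). In all, 8 genes on the arrays were over 512-fold higher in this comparison, of which 5 were members and 1 was another α-defensin. Over 64-fold there were 55 genes, of which 7 were members and 5 were other α-defensins. Since the members were chosen with the AOM contrasts in view, these counts describe the selection and show no enrichment.

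In the vehicle pools the α-defensins were at the limit of detection. Of their 14 probes, 3 were well above background in *Pla2g3*+/+, at 13.3 to 20.2, and 4 in *Pla2g3*-/-, at 20.3 to 85.3. Only 4 of the 10 genes had a ratio, of which 1, *Defa3*, was over 2-fold higher in *Pla2g3*-/- and 0 were lower, against 1.93% higher and 1.32% lower of 16392 genes. *Defa3* was at least 7.91-fold higher on its brightest probe (log2 2.98) and 5.29-fold on the mature-peptide probe (log2 2.40, modelled error 0.34). The former moved to a log2 ratio of 1.22, 2.33-fold, after normexp and quantile normalization, to 2.42 with the mean over its probes and to 2.53 with a common floor. The positions of these probes overlap, so they are not independent readings. The brighter *Defa23* probe, which shares 25 bases with the brightest *Defa3* probe with 1 mismatch, gave 20.2 and 27.2. The *Defa40* probe that differs from the mature-peptide probe of *Defa3* at 4 of 60 bases was not well above background in either pool (6.45 and 3.07), nor was the *Defa1* probe (3.49 and 4.78). *Defa27* was seen in *Pla2g3*-/- only, at 16.8, at least 1.55-fold higher. *Defa23* differed by 1.34-fold (0.43 ± 0.33), *Defa40* by 1.01-fold (0.01 ± 0.36) and *Lyz1* by 1.40-fold (0.49 ± 0.20). A ratio over 2-fold was thus seen on 2 of the 14 probes, both of *Defa3*.

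**Figure D2:**
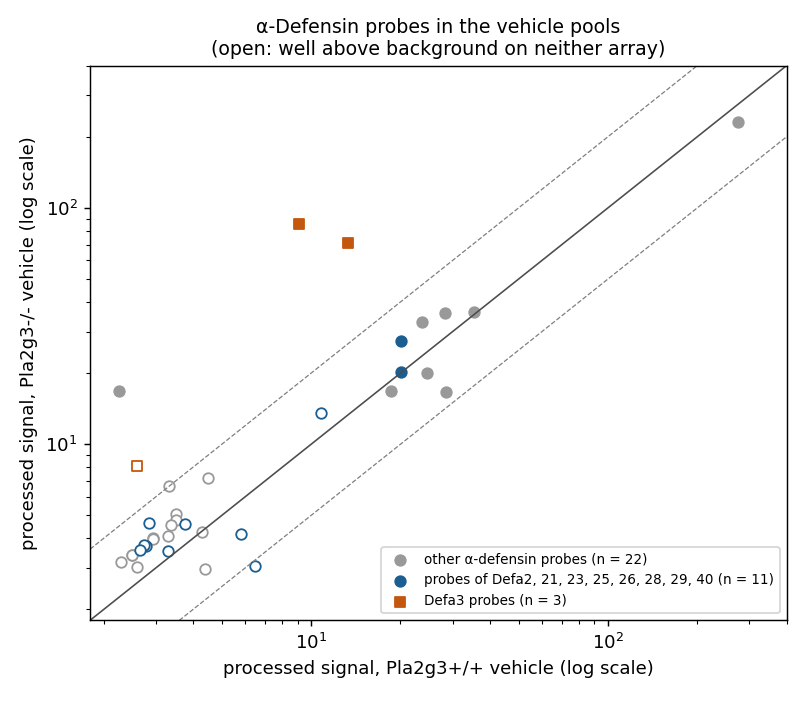
Processed signal of each of the 36 α-defensin probes in the *Pla2g3*+/+ (x axis) and *Pla2g3*-/- (y axis) vehicle pools on log scales, with the line of equality, dashed lines at 2-fold and open symbols where neither array was well above background. A pair of *Defa3* probes, at 71.1 and 85.3 in *Pla2g3*-/-, lies apart from the other detected probes near the line, and *Defa27* (16.8) was detected in *Pla2g3*-/- alone.

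On the same vehicle array labeled *Pla2g3*-/-, 2 of 9 granule genes with a value were over 2-fold higher and 0 lower, and 0 of 5 β-defensins were higher and 3 lower. The 2 granule genes were *Reg3b* and *Reg3g*, bactericidal lectins made by enterocytes and Paneth cells, which went from 18635 to 182794 (9.75-fold) and from 3970 to 54909 (13.7-fold). It also carried pancreatic acinar transcripts, with 10 of 12 listed genes over 2-fold higher, among them *Pnliprp1*, a lipase-related protein, at 55.1 and 302. The 12 genes had a median log2 ratio of 4.26 and a highest of 6.17. Their summed signal was 32.4 times the 75th percentile in *Pla2g3*+/+ and 33.96 in *Pla2g3*-/-, most of it from *Cela1* and *Clps*, which were within 2-fold. Their part in the *Defa3* signal was not tested.

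AOM against vehicle within *Pla2g3*-/- had small changes in both directions. *Defa40* was 2.38-fold higher after AOM (1.25 ± 0.32) and *Defa23* 2.33-fold (1.22 ± 0.28). *Defa3* was 2.91-fold lower on its brightest probe (−1.54 ± 0.23) and 3.49-fold lower on the mature-peptide probe, but at least 1.69-fold higher on the propiece probe. *Lyz1* was 2.23-fold lower (−1.16 ± 0.20). By count, the 2-fold limit was passed upward by 2 genes and downward by 2, while 3 lay within 2-fold and 3 had no value, against 9.65% higher and 15.1% lower of 16515 genes. These calls depend on scaling, since without it the median of all genes moved from −0.08 to 0.76 and the members became 4 higher and 0 lower. Of the 14 α-defensin probes, 9 were well above background in the *Pla2g3*-/- AOM pool, at 24.2 to 114, and 4 in the *Pla2g3*-/- vehicle pool. The AOM array was brighter as a whole (75th percentile 1169 against 649.8). These counts, made before scaling, therefore do not measure a change.

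The arrays hold another 22 probes named for α-defensins, and 19 of them were well above background in the *Pla2g3*+/+ AOM pool, at 191 to 74136. Of the 22, 19 were over 2-fold higher there than in the *Pla2g3*+/+ vehicle pool, with a median log2 ratio of 7.63, and 19 were over 2-fold lower in the *Pla2g3*-/- AOM pool. Among them are probes for *Defa36* (4.29, 4.24, 23292 and 16.1), *Defa27* (2.25, 16.8, 9341 and 10.6) and *Defa42* (2.93, 3.95, 1860 and 4.54), each well above background in the *Pla2g3*+/+ AOM pool and, for *Defa27*, in the *Pla2g3*-/- vehicle pool. *Defa39* (3.49, 5.07, 191 and 5.45) was the lowest of those detected there. *Defa38* gave 28.5, 16.6 (not well above background), 1197 and 32.0.

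Of the 22 probes, 9 carry no position of mm9, the C57BL/6 reference, in the array annotation, and all 9 were well above background in the *Pla2g3*+/+ AOM pool, at 1459 to 74136. *Defa1*, cryptdin-1, had 28.2, 36.0, 74136 and 197 on an unplaced probe, and its probe in the mature peptide had 3.49, 4.78, 22307 and 31.5. Another *Defa1* probe does have a position, chr8:22332166-22332226 of mm9, and gave 23.6, 32.8, 65181 and 129. *Defa4* gave 2.30, 3.17, 1459 and 3.64. The cryptdin-related *Defa-rs4* gave 4.40, 2.98, 7399 and 3.49, and *Defa-rs12* 24.5, 19.97, 2507 and 27.5. The vehicle signals of *Defa4*, *Defa-rs4* and the mature-peptide probe of *Defa1* were not well above background. The unplaced probes thus had the same bright array as 10 of the 13 placed ones.

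*Defa-rs10*, another cryptdin-related sequence, was the exception in the vehicle pools, where it was clearly measured, at 274 and 231, and it reached 7527 in the *Pla2g3*+/+ AOM pool and 243 in the *Pla2g3*-/- AOM pool. It was 13.5-fold higher after AOM in *Pla2g3*+/+ (3.76 ± 0.20). The pseudogene *Defa-ps13* had the opposite pattern, with 76.9 in the *Pla2g3*-/- AOM pool and 2.58 to 3.33, not well above background, elsewhere. *Defa10* and *Defa-ps12* were not well above background on any array.

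Lysozymes other than *Lyz1* are related by sequence and made by other cells. *Lyz2*, the macrophage lysozyme, had 1123, 1387, 4695 and 1141, and was 3.67-fold lower in *Pla2g3*-/- than in *Pla2g3*+/+ after AOM (−1.88 ± 0.20), beside 5.31-fold for *Lyz1*. Against vehicle it was 2.06-fold higher in *Pla2g3*+/+ and 2.19-fold lower in *Pla2g3*-/-, the directions seen for *Lyz1*. Of the macrophage markers, 8 of 10 were over 2-fold higher after AOM in *Pla2g3*+/+ and 8 of 10 over 2-fold lower in *Pla2g3*-/- than in *Pla2g3*+/+ after AOM, with a summed signal of 25.7 in the *Pla2g3*-/- AOM pool and 32.3 to 36.5 in the others. *Itgam*, the brightest of these markers over the 4 arrays, went the other way, so the sum mixes both directions. It was 3.14-fold lower after AOM in *Pla2g3*+/+, and between the AOM pools 2.12-fold higher in *Pla2g3*-/-. The part of macrophages in either lysozyme signal was not tested. *Lyzl4*, *Lyzl6* and *Lalba*, relatives with other sites of expression, differed by less than 2-fold between the genotypes in both treatments, and *Lyzl1* was not well above background on any array.

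The granule partners of the α-defensins moved in both directions. *Mmp7*, the enzyme that activates them, had 314, 374, 22717 and 13.7, the last not well above background. It was 35.6-fold higher after AOM in *Pla2g3*+/+ (5.16 ± 0.20), and between the AOM pools at least 1186-fold lower in *Pla2g3*-/-. *Pla2g2a*, the secreted phospholipase of Paneth granules, had 144, 221, 6723 and 218.1, which was 23.1-fold higher after AOM in *Pla2g3*+/+. *Habp2*, a serine protease, was well above background only in the *Pla2g3*+/+ AOM pool, at 2395. These 3 shared the direction of the α-defensins in both contrasts of that pool. Within *Pla2g3*-/-, where the α-defensins had small changes in both directions, *Mmp7* was at least 39.4-fold lower after AOM. There *Pla2g2a* was 1.82-fold lower and *Habp2* had no value.

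The other granule products differed from this in at least 1 of those contrasts. *Ang4*, an antimicrobial ribonuclease, had 84769, 69293, 6021 and 547, and was 28.6-fold lower after AOM in *Pla2g3*+/+ and 228-fold lower in *Pla2g3*-/-. Between the AOM pools it was 9.83-fold lower in *Pla2g3*-/-, as were *Reg3b* (8.02-fold) and *Reg3g* (29.6-fold), the direction of the α-defensins. *Mptx1*, a mucosal pentraxin, had 185323, 162396, 269 and 17230, and was 1397-fold lower after AOM in *Pla2g3*+/+ and 71.8-fold higher in *Pla2g3*-/- than in *Pla2g3*+/+ after AOM. *Itln1*, an intelectin that binds microbial sugars, had 13300, 9441, 24571 and 471, which was within 2-fold after AOM in *Pla2g3*+/+ and 36.0-fold lower after AOM in *Pla2g3*-/-, and between the AOM pools 46.5-fold lower in *Pla2g3*-/-. *Kcnn4*, a potassium channel used in Paneth secretion, ran from 1050 to 1489 and stayed within 2-fold in all 4 comparisons. Of the 10 listed granule genes on the arrays, 3 were higher and 4 lower by over 2-fold after AOM in *Pla2g3*+/+ (median log2 −0.68), and 7 of 9 with a value were lower and 1 higher between genotypes after AOM (median −4.78).

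Regulators of secretory and Paneth fate also moved in both directions, with 2 of 13 genes with a value over 2-fold higher and 5 lower after AOM in *Pla2g3*+/+ (median log2 ratio −0.52). *Atoh1*, the factor that commits progenitors to secretory fate, had 2860, 3054, 318 and 2479, 18.2-fold lower after AOM in *Pla2g3*+/+ (−4.19 ± 0.20). *Spdef*, which drives goblet and Paneth maturation, had 14209, 16742, 1426 and 5574, and *Gfi1*, which acts below *Atoh1*, had 1401, 1095, 302 and 634. All 3 were lowest in the *Pla2g3*+/+ AOM pool. *Sox9*, a Wnt target needed for Paneth cells, had 388, 358, 2285 and 1472, and was higher after AOM in both genotypes (2.90-fold and 2.28-fold). *Nod2*, a bacterial sensor of Paneth cells, had 70.2, 85.2, 331 and 107, with the *Pla2g3*+/+ AOM pool highest. *Xbp1*, which sustains secretion, had 19818, 18870, 21144 and 16956. After scaling it was 1.90-fold lower after AOM in *Pla2g3*+/+ and 2.001-fold lower in *Pla2g3*-/-, just past the 2-fold limit.

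**Figure D3:**
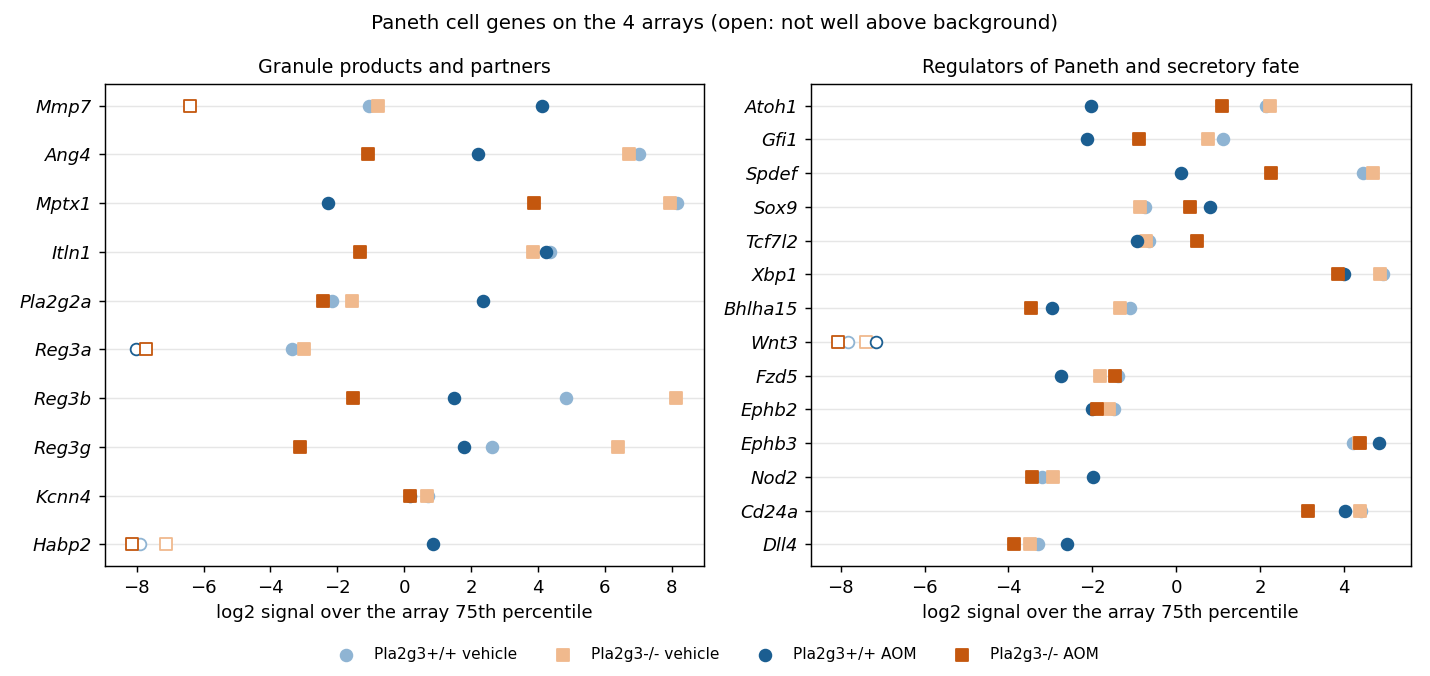
Log2 processed signal over the 75th percentile of the array for 10 granule genes (left) and 14 regulators (right), with circles for *Pla2g3*+/+, squares for *Pla2g3*-/-, pale symbols for vehicle, dark for AOM and open symbols not well above background. *Mmp7*, *Pla2g2a* and *Habp2* are highest in the *Pla2g3*+/+ AOM pool, while *Mptx1*, *Atoh1*, *Gfi1* and *Spdef* are lowest there.

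β-Defensins, which epithelia make without Paneth cells, were at low signals and moved in both directions. *Defb37* and *Defb40* were seen in the vehicle pools only, at 498 and 192 and at 197 and 62.0, and were not well above background after AOM. *Defb36* had 49.7, 6.54 (not well above background), 277 and 20.1, which was 2.75-fold higher after AOM in *Pla2g3*+/+ and 12.3-fold lower in *Pla2g3*-/- than in *Pla2g3*+/+ after AOM, the directions of the α-defensins. Of 9 genes listed, 5 had a value for AOM against vehicle in *Pla2g3*+/+, 1 of them over 2-fold higher and 4 lower, and 2 had a value between the AOM pools, 1 higher and 1 lower.

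Several tissue markers moved with the α-defensins between the AOM pools. All 11 Wnt targets of colon tumors were over 2-fold higher after AOM in *Pla2g3*+/+ and all 11 over 2-fold lower in *Pla2g3*-/- than in *Pla2g3*+/+ after AOM, with a summed signal of 7.42, 7.19, 70.1 and 8.45 times the 75th percentile. *Ascl2*, a stem cell factor, had 1074, 962, 10026 and 1889. Smooth muscle genes ran the other way, all 9 being over 2-fold lower after AOM in *Pla2g3*+/+, and *Tagln*, a marker of contractile cells, had 125378, 131000, 15155 and 184189. The summed signal of smooth muscle genes was 42.3 in the *Pla2g3*+/+ AOM pool and 641 to 702 elsewhere. The lists of goblet cells and colonocytes were lower in that pool too, with 8 of 8 and 8 of 9 genes over 2-fold down. How far such differences in tissue content account for the α-defensin signals was not tested.

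Small intestine is the usual site of Paneth cells, and a list of its enterocyte genes was read beside the α-defensins. *Fabp2*, a fatty acid binding protein, had 85702, 101265, 803 and 7131, and the summed signal of the 13 genes was 137, 160, 2.32 and 12.8, most of it from *Fabp2* in the vehicle pools. Of 10 genes with a value, 5 were over 2-fold lower after AOM in *Pla2g3*+/+ and 2 over 2-fold higher, *Mttp* (3.38-fold), which loads lipid onto lipoproteins, and *Anpep* (2.69-fold), a brush border peptidase. In that comparison the list thus moved in both directions. Between the AOM pools, all 11 genes with a value were higher in *Pla2g3*-/-, the direction opposite to the α-defensins. Of these, 6 were over 2-fold higher (median log2 1.46), against 15.1% of all genes. *Apoa4* was not well above background on any array and *Sis*, the brush border sucrase, was not in the AOM pools. With *Fabp2* this bright in vehicle colon, the list cannot tell small intestine from colon. A small-intestinal source of the α-defensin signals was not tested.

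**Figure D4:**
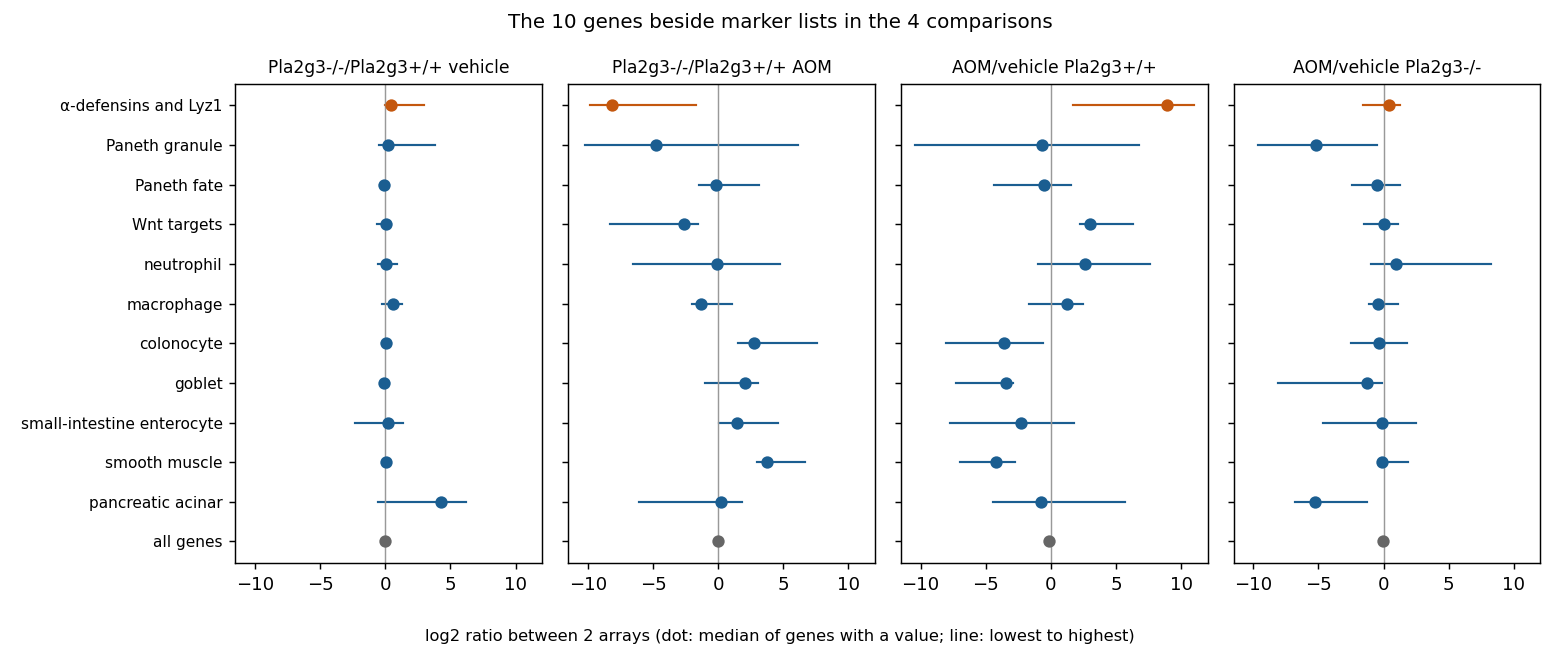
Median log2 ratio (dot) and range (line) of the 10 genes, of 10 marker lists and, as the median alone, of all genes, over genes with a value in each of the 4 comparisons. The 10 genes have medians of −8.17 and 8.90 in the comparisons that involve the *Pla2g3*+/+ AOM pool, where Wnt targets move the same way and smooth muscle the opposite way, and 0.46 and 0.42 in the others.

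Genes with the pattern most like the α-defensins over the 4 arrays were ranked by distance from their median profile, in log2 units, among 22357 other genes. *Defa27* was nearest (0.957), followed by *Mmp10*, a matrix metalloproteinase (0.965), *Onecut2*, a transcription factor (1.08), *Mt4*, a metallothionein of squamous epithelium (1.22), *Defa36* (1.34), *Defa-ps1* (1.504), *Otop2*, a proton channel (1.86), *S100a8*, a neutrophil calprotectin subunit (1.88), *Cdkn2a*, a cell cycle inhibitor (1.99), and *Defa31* (2.01). *Mmp10* had signals of 14.9, 20.3, 23758 and 28.3, and *Onecut2* was well above background in the *Pla2g3*+/+ AOM pool only, at 15465. *Lyz1* was much farther from the profile, at 6.26, and the farthest of the 9 α-defensins was at 5.90. With 4 arrays, many genes can share such a profile.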

How the data were processed

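RNA from 4 pools of colon was hybridized by the authors to 4 single-color Agilent arrays on 1 slide, 27.7 ng of RNA per array, and scanned. Per the file headers, Feature Extraction 11.5.1.1 read the spots, and it also gave a p-value of each spot against background, not used here. The deposited scanner files give a processed signal intensity per spot, and the deposited table gives the ratio of that intensity to the 75th percentile of its array, as the authors scaled it. Processed intensities were divided by the 75th percentile over 43020 non-control spots per array, spots of a probe were averaged, and the brightest probe stood for a gene. A log2 ratio over 2-fold was counted as higher or lower, following the study. With 1 array per group no test was possible, so only the spot error and the background limit are known and the number of arrays limits the precision. The replicate-spot SD was 0.066 to 0.079 on the log2 scale. Promoters came from RefSeq (GRCm38.p6) and array positions are mm9. The members and gene lists were chosen with earlier results of these data known. Genes were named where they were members, other α-defensin probes, genes of the granule, fate, lysozyme and β-defensin lists, the first 3 genes of other lists, or the 10 nearest in profile; *Cdx2*, *Apoa4*, *Sis*, *Mttp*, *Anpep*, *Defa10* and *Defa-ps12* were named after their values were seen. The calculation was tested on simulated data. Python 3.11.15, numpy 2.4.6, pandas 2.3.3, R 4.3.3 and limma 3.58.1 were used, and 12 alternatives were tried, among them quantile normalization, normexp, other probe rules and other thresholds.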

Additional observations from a re-analysis of the deposited data

Results flagged for a closer look

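*Defa3* differed in direction between treatments and between genotypes. In vehicle pools its log2 ratio of *Pla2g3*-/- to *Pla2g3*+/+ was at least 2.98, and after AOM it was −9.16. AOM against vehicle was at least 10.60 in *Pla2g3*+/+ and −1.54 in *Pla2g3*-/-. *Lyz1* also had opposite directions, at 1.74 in *Pla2g3*+/+ and −1.16 in *Pla2g3*-/- for AOM against vehicle. The *Pla2g3*-/- value of *Lyz1* kept its sign but fell within 2-fold in some settings. It was −0.84 after quantile normalization, −0.85 after normexp and quantile normalization, and −0.31 without scaling. These differences were not tested, since each group has 1 array, and each pair of values rests on the same 4 arrays.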

How the results depend on the processing

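No paired analysis was possible because each group has 1 array, and for the same reason no array could be left out. Over 12 alternatives, 82 of 96 counts stayed within 1.5 times their value. Other thresholds bear on counts only. Over the remaining alternatives, of 289 single ratios 193 moved little, 95 moved and 1 reversed. Members lower between genotypes after AOM numbered 7 to 10. The 7 came from using only probes well above background on both arrays, where 7 had a value (11.1% of all genes lower). Members higher after AOM in *Pla2g3*+/+ numbered 9 to 10, except 3 with that rule, where 3 had a value (13.8% of all genes higher). For *Pla2g3*-/- against *Pla2g3*+/+ with vehicle, the 1 higher gene became 0 of 3 with a value under that rule and 0 of 1 with the dimmest probe. For AOM against vehicle in *Pla2g3*-/-, the 2 higher genes became 4 without scaling, 0 after normexp and quantile normalization, 5 without the filter on dim probes, 0 with the dimmest probe and 0 at 4-fold. The 2 lower genes became 1 after quantile normalization, 0 without scaling, 0 after normexp, 1 with the mean over probes, 1 with the dimmest probe and 0 at 4-fold. In that comparison 7 members had a value in the main setting, 10 without the filter, 6 with the mean over probes and 4 with the dimmest probe. *Defa3* in that comparison reversed from −1.54 to 0.75 with the dimmest probe, its propiece probe. Without scaling, the median of all genes for AOM against vehicle moved from −0.17 to 0.87 in *Pla2g3*+/+ and from −0.08 to 0.76 in *Pla2g3*-/-, and the shares of all genes higher and lower became 45.1% and 7.17%, and 38.1% and 3.72%. Beyond these settings the cause was not tested. Signals in the vehicle pools were near background, so a ratio against them is a bound for most members.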
